A study of Homo sapiens with 10 samples.

Results

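Lung metastasis derivatives of the human colon cancer cell line SW620 were compared with the parental line on 3 lung and 4 parental arrays, which are 7 of the 10 arrays of the series. The arrays were chosen by their titles, and the other 3 hold liver metastasis derivatives. SW620 is an established line from a lymph node metastasis of a colorectal adenocarcinoma. Per the labels, derivatives were taken from metastases that had appeared in balb/c nude mice, and their cells were then expanded in culture before RNA was extracted. All groups, the parental cells included, carry the strain label balb/c, although the arrayed cells are human, and the same growth medium with 5% fetal bovine serum, and no treatment is named. The labels call the arrays biological replicates but do not say whether the lung arrays hold separate metastases or separate cultures of 1 derivative. The p-values therefore measure the spread between these samples, which may be technical. No value here comes from a metastasis in the animal, since all cells had been grown in dishes.

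SW620 cells carry an active Wnt pathway, as most colorectal cancers do. Selection in a host animal keeps the cells that survive in the circulation, leave the vessel and grow in the target organ, and the derivatives that come out are commonly searched for genes of adhesion, polarity, secreted signals and matrix breakdown. Balb/c nude mice lack a thymus and therefore mature T cells, while natural killer cells remain.

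Each gene was given by the mean of the log2 RMA values of its rows, which left 4713 genes with 1 to 107 rows each, 4660 of them on chromosomes 1, 10, 11 and 12. Genes on the other chromosomes are not analysed here. The table holds 65535 rows, and whether it is complete is not known, so counts and shares of all genes, and of the members of a list, cover only these 4713 genes. Values ran from 2.55 to 13.99, with array medians from 8.52 to 8.60. The keratins KRT8 and KRT18, which mark simple epithelium and most carcinoma lines, lay at 12.72 to 12.81 and 11.51 to 11.75 in parental arrays and at 12.71 to 12.91 and 11.50 to 11.76 in lung arrays. Neither differed between the groups beyond the spread (0.07, SE 0.06, and -0.01, SE 0.08).

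Parental replicate 4, called parental 4 below, stood apart from the other parental arrays. Across genes, which are not independent replicates, Pearson correlations were 0.9962 to 0.9975 among parental 1 to 3 and 0.9889 to 0.9908 between these and parental 4. Lung arrays correlated at 0.9843 to 0.9874 with parental 4 and at 0.9788 to 0.9849 with parental 1 to 3. Among the 1950 genes called when parental 4 was left out, parental 4 lay a median 52.25% of the way from the other parental arrays to the lung arrays, and 85.85% of these genes were displaced towards the lung arrays. The same measure gave -18.43%, -11.35% and 10.99% for parental 1, 2 and 3. Results are therefore also given against parental 4 alone. That contrast has 1 array on the parental side, takes its spread from the remaining arrays, and is said to hold where the gene was called in the same direction.

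A gene was called when the limma adjusted p was under 0.05. Against the 4 parental arrays 1420 genes were called, 30.1% of those tested, with 606 higher (12.9%) and 814 lower (17.3%) in lung derivatives. Against parental 4 alone 271 genes were called (5.75%), 145 higher (3.08%) and 126 lower (2.67%). Both contrasts called 213 genes in the same direction (4.52%), 109 higher (2.31%) and 104 lower (2.21%), and of the 1420 genes 1408 had the same sign against parental 4. Since both contrasts use the same lung arrays and parental 4, agreement between them is partly built in. Against parental 1 to 3 the count was 1950 (41.4%). Leaving out lung 1, parental 1 or parental 2 lowered the count of 1420 to 838, 847 and 832, and a fit of the 7 arrays alone gave 937. The balance of directions depended on the scaling, on the rows used and on the genes kept. The higher share of calls was 42.7% as deposited, 53.5% after a further quantile normalization, 57.1% after median centring and 50% after cyclic loess. It was 70.1% with the brightest row of each gene and 29.4% without the dimmest 25% of genes. A change of at least 1 log2 unit was found in 55 of the called genes (1.17%), 30 higher (0.637%) and 25 lower (0.53%), and 43 of the 55 held against parental 4.

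The genes that rose most and held against parental 4 were led by RAB25, MUCL1, ADGRL2 and KRT5. They comprise an epithelial trafficking GTPase, a small secreted mucin-like protein, an adhesion receptor and a basal keratin. The falls were led by NCAM1, WT1, GRAMD1B and CAMK2N1, and further down they included the crypt receptor LGR5 and the receptor kinase ROR1. In all 24 genes of this group every lung array lay beyond every parental array, as the choice of the genes required. Of all genes 32.3% had groups that did not overlap, 12.8% with the lung arrays above and 19.5% with them below.

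**Figure D1:**
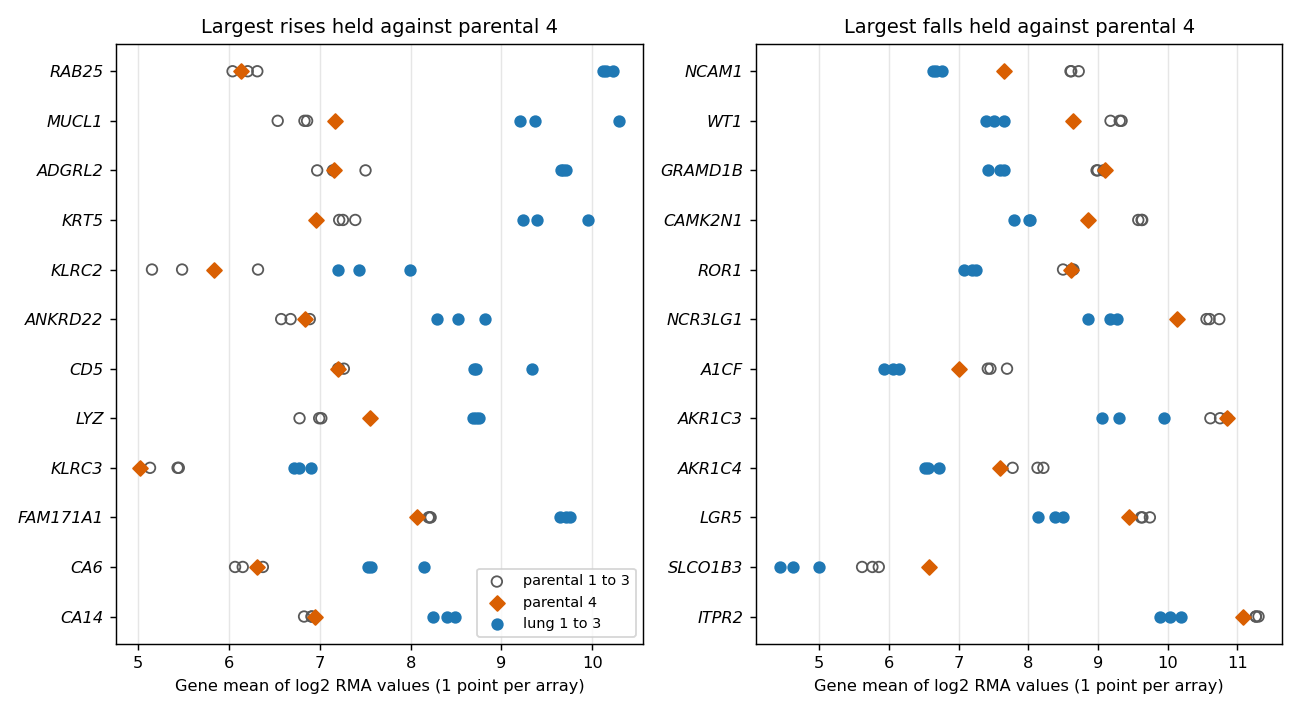
Gene mean of log2 RMA values (x axis) for the 12 largest rises (left) and the 12 largest falls (right) that held against parental 4, with 1 point per array: open circles are parental 1 to 3, orange diamonds parental 4 and blue points lung 1 to 3. RAB25 stands at 10.12 to 10.23 in lung arrays against 6.04 to 6.31 in parental arrays, and in NCAM1 parental 4 (7.65) lies between the lung arrays and the other parental arrays.

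RAB25 on chromosome 1 encodes a small GTPase of the Rab11 family that returns membrane proteins, integrins among them, to the surface of epithelial cells. Its gene mean was 6.04, 6.31, 6.21 and 6.13 in parental 1 to 4 and 10.12, 10.16 and 10.23 in lung 1 to 3. Both groups were tight and far apart. The difference was 16.0-fold (log2 4.0, SE 0.07, limma adjusted p = 4.71e-11; 10.17 ± 0.06 against 6.17 ± 0.12, SD, n = 3 and 4). Of the single rows 5.14% were called higher against the 4 parental arrays over the whole table, 7.98% lower and 1.09% in either direction against parental 4. RAB25 was called higher in 5 of 5 rows and held against parental 4 (4.04, adjusted p = 3.35e-08).

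MUCL1 on chromosome 12, a small secreted mucin-like protein known from breast and sweat gland epithelium, lay at 6.54, 6.83, 6.86 and 7.17 in parental arrays and at 9.37, 9.20 and 10.30 in lung arrays. Lung 3 was the highest, and the lowest lung array was still well above parental 4, the highest parental array. The rise was 6.84-fold (log2 2.77, SE 0.22, adjusted p = 2.49e-05), was called in 9 of 10 rows, and held against parental 4 (2.45, adjusted p = 0.00312).

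ADGRL2 on chromosome 1 encodes latrophilin 2, an adhesion G protein-coupled receptor. Its parental values were 7.50, 7.14, 6.97 and 7.15 and its lung values 9.65, 9.68 and 9.71, so the lung arrays varied less than the parental arrays. The rise of 5.62-fold (log2 2.49, SE 0.10, adjusted p = 1.09e-07) was called in 24 of 26 rows and held against parental 4 (2.53, adjusted p = 3.17e-05).

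KRT5 on chromosome 12, a keratin of basal and squamous epithelium, stood at 7.21, 7.25, 7.39 and 6.96 in parental arrays and at 9.24, 9.40 and 9.95 in lung arrays. Parental 4 was the lowest parental array, so the difference of 5.01-fold (log2 2.32, SE 0.15, adjusted p = 4.73e-06) was larger against it (2.57, adjusted p = 0.00017). FAM171A1 on chromosome 10 lay at 8.22, 8.21, 8.20 and 8.07 in parental and at 9.64, 9.76 and 9.72 in lung arrays. Its arrays were close within each group, and the rise (1.53, SE 0.06, adjusted p = 1.09e-07; 9 of 10 rows) held against parental 4 (1.64).

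A pair of carbonic anhydrases, enzymes that interconvert carbon dioxide and bicarbonate, rose together. The membrane-bound CA14 lay at 6.91, 6.91, 6.83 and 6.95 in parental and at 8.49, 8.25 and 8.40 in lung arrays (1.48, SE 0.08, adjusted p = 4.86e-07; 1.43 against parental 4). The secreted CA6 lay at 6.15, 6.07, 6.37 and 6.31 in parental and at 7.53, 7.57 and 8.14 in lung arrays (1.52, SE 0.16, adjusted p = 9.33e-05; 1.44 against parental 4). Neither gene overlapped between the groups. ANKRD22 was at 6.68, 6.89, 6.57 and 6.84 in parental and at 8.52, 8.29 and 8.82 in lung arrays (1.80, SE 0.13, adjusted p = 1.01e-05; 1.70 against parental 4).

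Genes known from blood cells were among the largest rises. CD5, a scavenger receptor of T cells, was at 7.20, 7.26, 7.21 and 7.20 in parental and at 8.69, 8.72 and 9.34 in lung arrays. The rise was 3.24-fold (log2 1.70, SE 0.13, adjusted p = 2.11e-05), was called in 9 of 11 rows, and held against parental 4 (1.71, adjusted p = 0.00193). By its brightest row alone the rise was 0.60 and was still called. LYZ, the antibacterial lysozyme, which Paneth cells of the gut also make, was at 7.02, 6.99, 6.78 and 7.55 in parental and at 8.76, 8.73 and 8.69 in lung arrays. Parental 4 was the highest parental array, and the rise of 3.12-fold (log2 1.64, SE 0.15, adjusted p = 5.37e-05) was smaller against it (1.18, adjusted p = 0.000958).

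The natural killer receptor genes KLRC2 (1.84, SE 0.26; 1.70 against parental 4) and KLRC3 (1.54, SE 0.11; 1.78 against parental 4) also rose, in 1 of 2 and in 2 of 6 rows. KLRC2 ran from 5.15 to 6.32 in parental and from 7.20 to 7.99 in lung arrays, and KLRC3 from 5.02 to 5.45 and from 6.72 to 6.90. These neighbours on chromosome 12 are nearly identical and can share probes, so they cannot be read as separate rises.

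The promoters of the leading rises were read for the E-box CACCTG, a motif chosen because ZEB1 was among the called genes of these same data. ZEB1 is a zinc finger repressor of epithelial genes that is known to bind this E-box. ZEB1 lay at 7.53, 7.53, 7.38 and 7.75 in parental and at 6.99, 6.78 and 6.89 in lung arrays. It fell in lung derivatives by 0.66 (SE 0.10, adjusted p = 0.00125) and by 0.86 against parental 4 (adjusted p = 0.00387), with 4 of its 17 rows called lower and none higher. By its brightest row alone the fall was 0.33 and was not called. RefSeq promoters (GRCh38.p14) were matched for 9 of the 12 rises and 7 of the 12 falls. The 250 bases before the start held the E-box, on either strand, in 4 of the 9 rises and in 0 of the 7 falls, against 17.5% of 27305 promoters in the table and 16.8% of the 3730 promoters of measured genes. The same windows were read for 2 other motifs on either strand. The TCF/LEF core CTTTGA was in 1 of the 9 rises and 2 of the 7 falls (11.4% of all promoters and 9.7% of those of measured genes). The TATA box TATAAA was in 1 of the 9 rises and 3 of the 7 falls (11.1% and 9.8%). None of the 3 motifs was tested. The share of G and C bases ran from 32.0% (KLRC3) to 78.4% (FAM171A1) in the windows of the rises. In those of the falls it ran from 28.4% (SLCO1B3) to 70.4% (WT1). The part of base composition in these counts was not tested. The 4 windows are shown 5′ to 3′ on the strand of the gene, with the E-box in capitals.
RAB25, chr1:156060910-156061159, plus strand: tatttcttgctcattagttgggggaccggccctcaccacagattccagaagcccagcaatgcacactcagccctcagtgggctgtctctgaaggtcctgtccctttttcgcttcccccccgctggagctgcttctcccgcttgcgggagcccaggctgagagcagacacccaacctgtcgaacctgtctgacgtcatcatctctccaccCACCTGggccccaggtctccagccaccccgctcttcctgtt
KRT5, chr12:52520395-52520644, minus strand: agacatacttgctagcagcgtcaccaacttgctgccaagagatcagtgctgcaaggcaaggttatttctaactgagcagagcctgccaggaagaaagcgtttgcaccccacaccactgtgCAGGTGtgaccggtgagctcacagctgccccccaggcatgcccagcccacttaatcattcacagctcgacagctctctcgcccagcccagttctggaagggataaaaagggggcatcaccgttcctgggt
FAM171A1, chr10:15371290-15371539, minus strand: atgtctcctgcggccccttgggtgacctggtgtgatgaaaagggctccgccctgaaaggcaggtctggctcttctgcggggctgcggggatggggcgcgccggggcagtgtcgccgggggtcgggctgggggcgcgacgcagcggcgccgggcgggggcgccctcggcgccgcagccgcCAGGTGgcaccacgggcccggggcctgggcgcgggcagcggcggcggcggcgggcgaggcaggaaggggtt
CA6, chr1:8945618-8945867, plus strand: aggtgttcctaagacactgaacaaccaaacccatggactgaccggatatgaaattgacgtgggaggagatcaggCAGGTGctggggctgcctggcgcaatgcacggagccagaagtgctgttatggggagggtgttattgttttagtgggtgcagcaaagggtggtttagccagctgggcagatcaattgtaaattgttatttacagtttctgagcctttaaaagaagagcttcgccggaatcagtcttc
The E-box began 41 bases before the start in RAB25, 130 in KRT5, 71 in FAM171A1 and 176 in CA6. In RAB25 it reads CACCTG on the strand of the gene. In the other 3 genes the same strand reads CAGGTG, which is CACCTG read on the opposite strand. A match of 6 letters is a description of the sequence, and binding was not measured.

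NCAM1 on chromosome 11, a neural cell adhesion molecule, fell most among the genes that held. It lay at 8.61, 8.72 and 8.62 in parental 1 to 3, at 7.65 in parental 4 and at 6.68, 6.64 and 6.76 in lung arrays, so parental 4 stood midway. The fall was 3.27-fold (log2 -1.71, SE 0.21, adjusted p = 0.000311; 16 of 24 rows), and it was smaller against parental 4 (-0.96, adjusted p = 0.000195). WT1, a zinc finger transcription factor of kidney development, was at 9.34, 9.31, 9.18 and 8.64 in parental and at 7.52, 7.65 and 7.40 in lung arrays (-1.60, SE 0.15, adjusted p = 5.74e-05; 9 of 11 rows; -1.12 against parental 4). CAMK2N1, which restrains the calcium-activated kinase CaMKII, was at 9.58, 9.63, 9.63 and 8.86 in parental and at 7.79, 8.03 and 8.02 in lung arrays (-1.48, SE 0.17, adjusted p = 0.000195; -0.91 against parental 4). In all 3 genes parental 4 was the parental array nearest the lung arrays.

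Other falls were as large against parental 4 as against the 4 parental arrays. GRAMD1B, a protein that moves cholesterol from the plasma membrane to the endoplasmic reticulum, was at 9.0, 8.98, 9.08 and 9.10 in parental and at 7.43, 7.59 and 7.65 in lung arrays (-1.48, SE 0.07, adjusted p = 2.56e-07; -1.54 against parental 4). ROR1, a receptor tyrosine kinase that binds Wnt5a, was at 8.50, 8.65, 8.63 and 8.62 in parental and at 7.26, 7.07 and 7.20 in lung arrays (-1.42, SE 0.07, adjusted p = 4.45e-07; -1.44 against parental 4). Of its 12 rows 9 were called lower and 1 higher, and by its brightest row alone ROR1 was higher (1.26, adjusted p = 0.0241), so the direction of ROR1 depends on the rows used. SLCO1B3, a transporter of organic anions, was at 5.76, 5.86, 5.62 and 6.58 in parental and at 4.44, 5.00 and 4.62 in lung arrays (-1.27, SE 0.20, adjusted p = 0.00166). Here parental 4 lay away from the lung arrays, which enlarges the fall against it (-1.89).

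LGR5, the R-spondin receptor that marks Wnt-dependent crypt stem cells, was at 9.64, 9.74, 9.62 and 9.45 in parental and at 8.38, 8.50 and 8.14 in lung arrays. The groups did not overlap, and the fall of 2.42-fold (log2 -1.27, SE 0.11, adjusted p = 5.07e-05) was called in 17 of 18 rows and held against parental 4 (-1.11, adjusted p = 0.00432). ITPR2, a calcium release channel of the endoplasmic reticulum, was at 11.30, 11.26, 11.27 and 11.08 in parental and at 10.04, 10.19 and 9.88 in lung arrays. Its fall (-1.19, SE 0.10, adjusted p = 2.83e-05; -1.04 against parental 4) was called in 56 of 59 rows, although its brightest row alone changed by -0.27.

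The aldo-keto reductases AKR1C3 and AKR1C4, enzymes of steroid and prostaglandin metabolism, both fell. AKR1C3 was at 10.85, 10.75, 10.61 and 10.84 in parental and at 9.31, 9.06 and 9.95 in lung arrays (-1.33, SE 0.16, adjusted p = 0.000363; 8 of 8 rows; -1.40 against parental 4). AKR1C4 was at 8.22, 8.13, 7.78 and 7.59 in parental and at 6.56, 6.53 and 6.72 in lung arrays (-1.32, SE 0.14, adjusted p = 9.33e-05; -0.98 against parental 4). The family members are nearly identical and can share probes, and AKR1C1 (-0.07) and AKR1C2 (0.11) were not called. NCR3LG1, the surface ligand of the natural killer receptor NKp30, was at 10.74, 10.60, 10.56 and 10.14 in parental and at 9.17, 8.86 and 9.27 in lung arrays (-1.41, SE 0.13, adjusted p = 6.11e-05; -1.04 against parental 4). A1CF, an RNA-binding cofactor of apolipoprotein B editing, ran from 7.0 to 7.70 in parental and from 5.93 to 6.15 in lung arrays (-1.35, SE 0.13; -0.95 against parental 4). Its fall was called in 7 of 18 rows, and its brightest row alone changed by 0.0015.

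A second group of genes was called against the 4 parental arrays but not against parental 4 alone. The secreted Wnt antagonist DKK1 was at 6.60, 7.0, 6.84 and 8.06 in parental and at 8.22, 8.46 and 8.78 in lung arrays. Parental 4 lay just below the lowest lung array, and the rise of 1.36 (SE 0.28, adjusted p = 0.00627) was 0.43 against it (adjusted p = 0.248). ACSL5, an acyl-CoA synthetase of fatty acid metabolism, was at 8.21, 7.92, 7.72 and 8.85 in parental and at 9.35, 9.31 and 9.99 in lung arrays (1.38, SE 0.24, adjusted p = 0.00302; 0.70 against parental 4, adjusted p = 0.145). ZNF487 was at 6.67, 6.80, 6.54 and 7.48 in parental and at 8.22, 7.97 and 7.78 in lung arrays (1.11, SE 0.19, adjusted p = 0.00265; 0.51 against parental 4, adjusted p = 0.0979).

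In 2 further rises parental 4 lay with the other parental arrays. The early response transcription factor EGR2 was at 7.17, 6.95, 7.15 and 7.40 in parental and at 8.28, 8.08 and 9.02 in lung arrays (1.29, SE 0.19, adjusted p = 0.00099; 1.06 against parental 4, adjusted p = 0.0536). CH25H, which makes 25-hydroxycholesterol, was at 7.26, 7.23, 7.39 and 7.36 in parental and at 8.23, 8.05 and 9.09 in lung arrays (1.15, SE 0.20, adjusted p = 0.00264; 1.10 against parental 4, adjusted p = 0.0707). In both genes lung 3 was the highest array. The falls of this group were ANKRD36BP1 (-1.08; -0.63 against parental 4), the embryonic globin HBE1 (-0.95; -0.72), the microtubule-affinity kinase MARK1 (-0.95; -0.74), C10orf67 (-0.88; -0.49) and TMEM183A (-0.78; -0.59). In each of these 5 falls parental 4 was the lowest parental array and stood above all lung arrays.

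**Figure D2:**
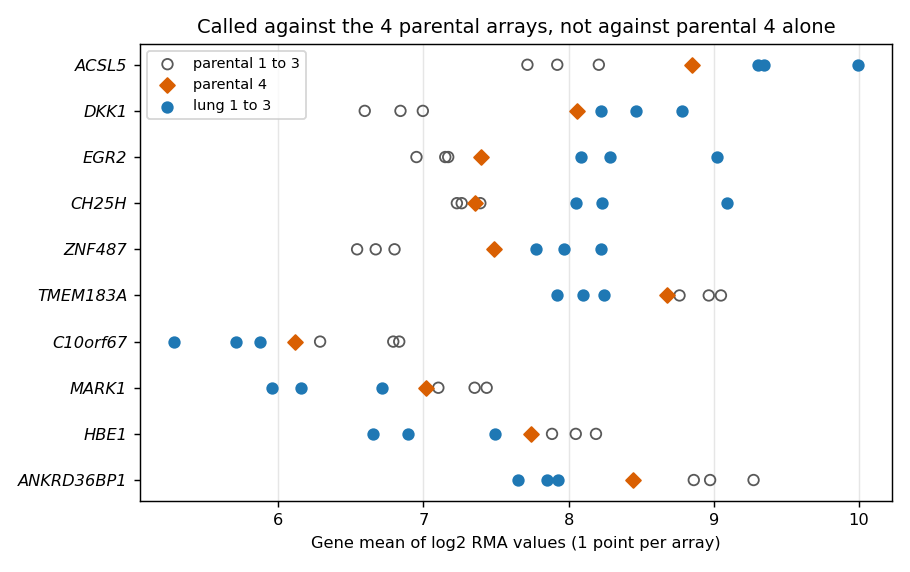
Gene mean of log2 RMA values (x axis) in each array for the 5 largest rises and 5 largest falls called against the 4 parental arrays but not against parental 4 alone: open circles are parental 1 to 3, orange diamonds parental 4 and blue points lung 1 to 3. DKK1 stands at 8.06 in parental 4, next to the lung arrays (8.22 to 8.78), while CH25H stands at 7.36 in parental 4 among the other parental arrays.

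Gene lists are described by how many measured members were called, beside the shares of all genes (12.9% higher and 17.3% lower) and the median change of all genes (-0.01). In bulk arrays fewer cells of a type and less RNA per cell cannot be told apart. Cell cycle and DNA replication genes had the largest lower share of the 24 lists, while leukocyte markers, lung epithelial markers and secreted proteases had the largest higher shares. The lists were not compared with other genes by a test. Most counts are small and rest on few arrays, so the counts with 1 array left out are given where an array moved them by over 1.5 times.

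**Figure D3:**
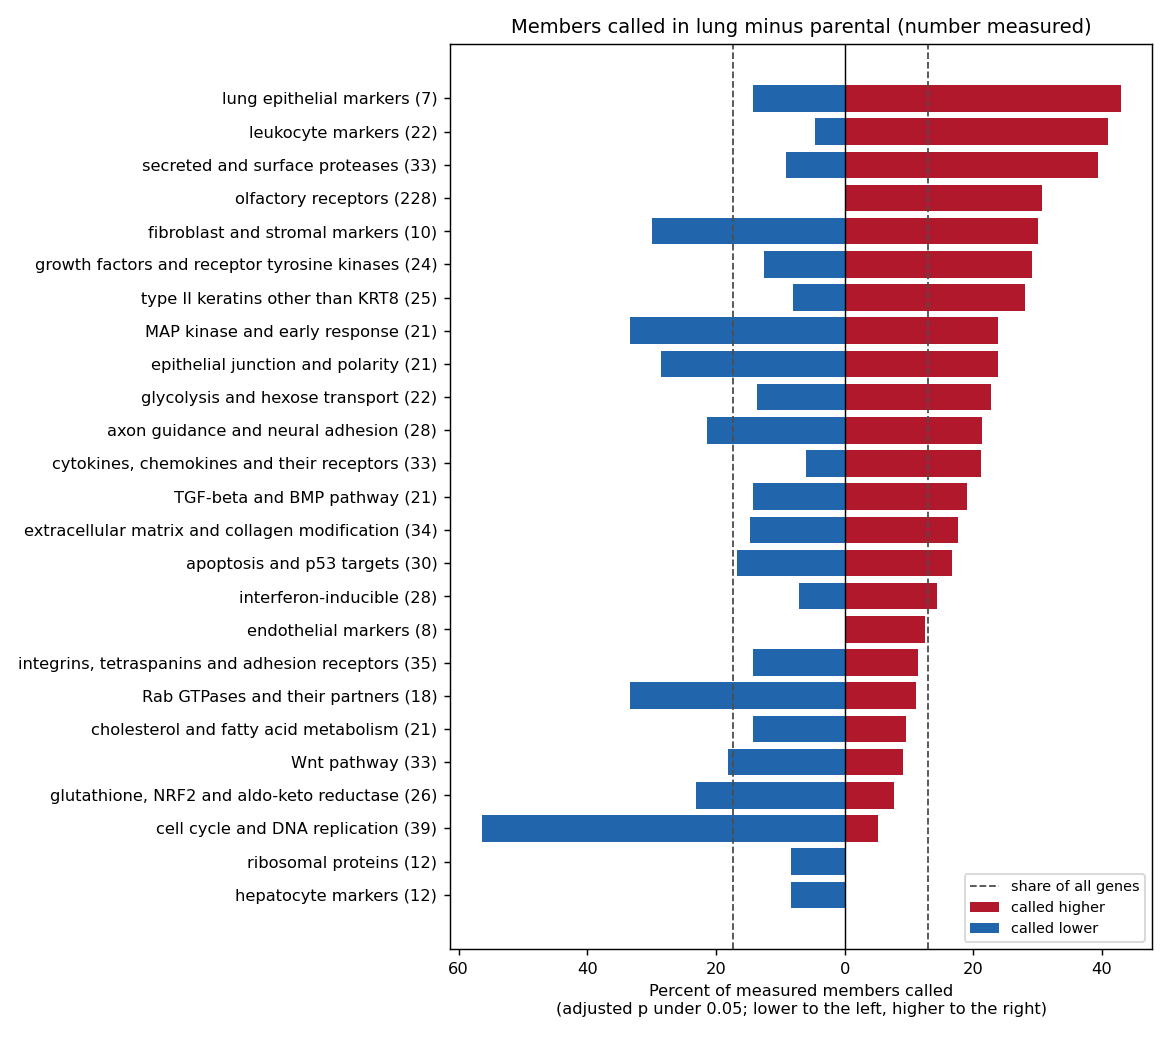
Percent of the measured members of each gene list (number in parentheses) called higher (red, to the right) or lower (blue, to the left) in lung derivatives against the 4 parental arrays, with dashed lines at the shares of all genes (12.9% and 17.3%). Cell cycle genes have 56.4% called lower and secreted proteases 39.4% called higher.

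Among growth factors and receptor tyrosine kinases, 7 of 24 measured members were higher and 3 lower, with a median change of 0.13 (0.16 against parental 4). The lower count was 1 without lung 1, lung 2, parental 1 or parental 2. IGF2, an insulin-like growth factor, was at 7.66, 7.74, 7.93 and 7.77 in parental and at 8.83, 8.94 and 9.01 in lung arrays. It rose 1.15 (SE 0.07, adjusted p = 4.73e-06) and by as much against parental 4 (1.15, adjusted p = 0.000404), though its brightest row alone changed by 0.16. The vasoactive peptide ADM was at 8.45, 8.56, 8.61 and 8.83 in parental and at 9.46, 9.56 and 9.36 in lung arrays (0.85, SE 0.09, adjusted p = 9.33e-05; 0.63 against parental 4). FGF19 (0.50; 0.59 against parental 4), ARTN (0.46; 0.43) and the KIT ligand KITLG (0.81; 0.89) also rose and held, and with ROR1 these were the 6 members that held. FGF19, ARTN and KITLG were named after their values were seen. PTHLH, a parathyroid hormone-related protein tied to bone metastasis, was at 7.64, 7.84, 8.02 and 8.93 in parental and at 8.36, 8.79 and 8.40 in lung arrays. It was not called in either contrast, and its difference was 0.41 against the 4 parental arrays and -0.41 against parental 4, while without parental 4 it was called higher.

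In the Wnt list 3 of 33 members were higher and 6 lower, and the list's median of -0.06 changed sign against parental 4 (0.05), after quantile normalization and after cyclic loess. Without parental 4 there were 11 lower calls, and without lung 3 or parental 1 there were 3. Both R-spondin receptors among the called members fell: LGR5, given above, and LGR6, which was at 8.79, 8.97, 8.83 and 9.19 in parental and at 8.28, 8.22 and 8.20 in lung arrays (-0.71, SE 0.09, adjusted p = 0.000442; -0.95 against parental 4; 12 of 21 rows). With the median of its rows LGR6 changed by -0.28 and was not called. Against parental 4 the list had 2 members higher and 2 lower, LGR5, LGR6, CCND2 and, named after its values were seen, CCND1 (0.40; 0.03 against the 4 parental arrays, not called there). The cell cycle regulator CCND2, a Wnt target, was at 7.54, 7.72, 7.67 and 6.84 in parental and at 8.42, 8.55 and 9.34 in lung arrays. It rose 1.33 (SE 0.23, adjusted p = 0.00304), and more against parental 4 (1.93, adjusted p = 0.00358), the lowest of the parental arrays. The brightest row of CCND2 changed by 0.08.

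In the TGF-beta and BMP list 4 of 21 members were higher and 3 lower (median 0.05; 0.01 against parental 4). Without parental 4 there were 5 lower calls. LTBP3, which tethers latent TGF-beta to the matrix, ran from 9.60 to 9.75 in parental and from 10.03 to 10.31 in lung arrays (0.55, SE 0.08, adjusted p = 0.00136; 0.46 against parental 4, adjusted p = 0.055). The co-receptor TGFBR3 ran from 9.72 to 9.79 and from 9.20 to 9.49 (-0.45, SE 0.07, adjusted p = 0.00209) and held (-0.48, adjusted p = 0.0346), as did ZEB1. The ligand TGFB2, named after its values were seen, was at 7.19, 7.24, 7.26 and 7.91 in parental and at 8.69, 8.56 and 7.99 in lung arrays. It rose 1.01 (SE 0.19, adjusted p = 0.004), but parental 4 stood just under lung 3 and the difference from it was 0.51 (adjusted p = 0.179).

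Guidance receptors and their ligands, which steer axons and also cell sorting in epithelium, were called 6 higher and 6 lower of 28 (median -0.07). Against parental 4 the counts were 3 and 1 and the median 0.06, and the members called were CNTN1, EFNA4, NRP1 and, named after its values were seen, NAV2 (0.56 against parental 4; 0.57 against the 4 parental arrays). The ephrin EFNA4 rose from 6.74 to 6.99 in parental arrays to 7.60 to 7.81 in lung arrays (0.84, SE 0.08, adjusted p = 7.28e-05) and held (0.75). The Wnt-dependent receptor EPHB2 fell by 0.48 (SE 0.07, adjusted p = 0.00121; 16 of 23 rows) and the semaphorin receptor PLXNA2 by 0.54 (SE 0.08, adjusted p = 0.00136), and neither held (adjusted p = 0.0514 and 0.0521). NRP1, a co-receptor of semaphorins and VEGF that was named after its values were seen, was at 8.89, 8.75, 8.68 and 9.62 in parental and at 8.10, 8.25 and 8.31 in lung arrays. Its fall of 0.76 (SE 0.18, adjusted p = 0.0117) was larger against parental 4 (-1.40), the highest parental array, and its brightest row alone was 0.13 higher and not called.

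Of 35 integrins, tetraspanins and adhesion receptors 4 were higher and 5 lower (median 0.06; -0.06 against parental 4). The higher count was 8 without parental 4, and the lower count 3 without lung 1 or parental 1. The hyaluronan receptor CD44 was at 7.79, 7.98, 7.82 and 7.96 in parental and at 6.62, 6.55 and 6.99 in lung arrays, with no overlap. It fell 2.25-fold (log2 -1.17, SE 0.11, adjusted p = 6.03e-05; 14 of 23 rows) and held (-1.24, adjusted p = 0.00312). CD44 and NCAM1 were the 2 members that held. The tetraspanin TSPAN1 was higher (0.89, SE 0.16, adjusted p = 0.00322) but not against parental 4 (0.46, adjusted p = 0.151).

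Epithelial junction and polarity genes were called 5 higher and 6 lower of 21 (median -0.11; -0.06 against parental 4). The higher count was 3 without lung 3, parental 1 or parental 2. Of the desmosomal plakophilins PKP1 rose by 0.62 (SE 0.10, adjusted p = 0.0017) and PKP2 fell by 0.33 (SE 0.06, adjusted p = 0.00249). The adhesion receptor NECTIN1 fell by 0.60 (SE 0.10, adjusted p = 0.00264). None of the 3 held against parental 4 (0.60, -0.30 and -0.30, adjusted p = 0.0503, 0.0534 and 0.0975). Of the epithelial list CRB1 (0.35 against parental 4) and ELF3 (-0.40) did hold, both named after their values were seen. PKP3, another plakophilin of the list, was not among the called members.

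Among 25 type II keratins other than KRT8, 7 were higher and 2 lower (median 0.19; 0.15 against parental 4), and the hair keratins KRT81 (0.84), KRT83 (0.35) and KRT86 (0.57) were among the higher ones. The lower count was 1 without lung 1, lung 3, parental 1 or parental 3. KRT86 was at 9.76, 9.81, 9.89 and 10.24 in parental and at 10.37, 10.62 and 10.49 in lung arrays (SE 0.11, adjusted p = 0.00466; 0.26 against parental 4, not called), and its brightest row changed by -0.10. These hair keratins are close copies of each other, and KRT81 and KRT83 were named after their values were seen. KRT80 fell by 0.57 (SE 0.08, adjusted p = 0.000726) and held (-0.40, adjusted p = 0.0354), as did the rises of KRT5 and, named after its values were seen, KRT74 (0.35; 0.62 against parental 4). KRT7 (-0.10) was not called. Among Rab GTPases and their partners 2 of 18 were higher and 6 lower, and RAB25 was the single member that held. The 6 lower calls were 1 after cyclic loess, and 0, 3, 1 and 1 without lung 1, lung 3, parental 1 and parental 2. The 2 higher calls were 1 without any of these 4 arrays in turn.

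Secreted and surface proteases, which cut matrix and activate growth factors, were called 13 higher and 3 lower of 33 (39.4% and 9.09%; median 0.14; 0.13 against parental 4). Without parental 4 the counts were 13 and 4, and without lung 1 or parental 1 the 13 became 8. Without lung 1 the lower count was 1. Against parental 4 alone 2 of 33 were called higher and 2 lower. These were ADAMTS4 and HTRA1, which held, and TMPRSS13 (0.52; 0.13 against the 4 parental arrays) and ADAMTS14 (-0.38; -0.21), which were not called against the 4 parental arrays and were named after their values were seen. The aggrecanase ADAMTS4 was at 6.82, 6.79, 6.68 and 6.99 in parental and at 7.71, 7.51 and 7.82 in lung arrays, and it rose by 0.86 (SE 0.10, adjusted p = 0.000181) and held (0.69, adjusted p = 0.0146), while its brightest row alone changed by 0.23 and was not called. The membrane serine protease TMPRSS4 rose by 0.33 (SE 0.07, adjusted p = 0.00575; 0.30 against parental 4, not called), with a change of -0.21 by its brightest row. The secreted serine protease HTRA1 was at 9.61, 9.69, 9.60 and 9.55 in parental and at 9.19, 8.97 and 8.96 in lung arrays and fell by 0.57 (SE 0.08, adjusted p = 0.000563; -0.51 against parental 4, adjusted p = 0.0271). Its rows disagreed, since 6 of 10 were called lower, 2 higher, and the brightest changed by 1.20.

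The matrix metalloproteinase genes of chromosome 11 gave 8 of the 13 higher calls: MMP3, MMP7, MMP8, MMP10, MMP12, MMP13, MMP26 and MMP27. MMP7, the epithelial matrilysin, was at 7.04, 7.15, 6.90 and 7.89 in parental and at 8.38, 8.06 and 8.11 in lung arrays. It rose by 0.94 (SE 0.19, adjusted p = 0.0063) but by 0.29 against parental 4 (adjusted p = 0.233), which lay just below the lung arrays. The other 7 changed by 0.23 to 0.49 at levels from 4.91 to 6.67, and 0 of the 8 held against parental 4. Their gene means rest on small shifts of many rows: no single row was called in MMP12, MMP26 and MMP27, and 1 row of MMP13 was called lower and none higher. MMP7 and the other MMP genes were named after their values were seen.

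In the extracellular matrix list 6 of 34 members were higher and 5 lower (median 0.01; 0.09 against parental 4). The higher count was 1 or 2 without lung 1, lung 3 or parental 1, 2 or 3, and the lower count 2, 3 and 2 without lung 1, parental 1 and parental 2. The basement membrane glycoprotein NID1 was at 10.11, 10.21, 10.03 and 9.83 in parental and at 9.18, 9.25 and 9.58 in lung arrays (-0.71, SE 0.12, adjusted p = 0.00236; 12 of 21 rows; -0.49 against parental 4, adjusted p = 0.108). LUM, a collagen-binding proteoglycan named after its values were seen, was at 7.59, 7.51, 7.38 and 8.20 in parental and at 6.92, 6.77 and 7.48 in lung arrays. Lung 3 overlapped with the parental arrays, and the fall (-0.62, SE 0.20, adjusted p = 0.0358) was larger against parental 4 (-1.15, adjusted p = 0.014). Without lung 1, lung 2, parental 1 or parental 2 the fall against the remaining parental arrays was not called.

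Of 33 cytokines, chemokines and their receptors 7 were higher and 2 lower, with 0 against parental 4. The higher count was 4 without lung 1, parental 1 or parental 2, and the lower count was 0 without the same arrays and 1 without lung 2 or parental 3. TNFSF4, a costimulatory ligand of the TNF family, changed from 5.60 to 5.81 in parental arrays to 6.09 to 6.38 in lung arrays (0.53, SE 0.08, adjusted p = 0.00164; 0.43 against parental 4). Interferon-inducible genes were called 4 higher and 2 lower of 28, led by IFI44L (0.39, SE 0.08, adjusted p = 0.00498; 0.31 against parental 4, not called). The higher count was 7 without parental 4, and the lower count was 0 without lung 1 and 1 without parental 1, 2 or 3. IFITM3, a membrane protein that blocks virus entry, was at 8.69, 8.61, 8.31 and 8.24 in parental and at 8.79, 8.98 and 9.12 in lung arrays. It was the single interferon-inducible gene that held (0.50, SE 0.12, adjusted p = 0.0109; 0.73 against parental 4, adjusted p = 0.0266). Of its 5 rows 3 were called higher and 1 lower, and its neighbours IFITM1 and IFITM2 are near copies that can share probes.

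MAP kinase and early response genes were called 5 higher and 7 lower of 21, and the list's median of -0.04 changed sign against parental 4 (0.17) and under the 3 other scalings. Without lung 1, parental 1 and parental 2 there were 2, 4 and 4 lower calls. The transcription factor JUN was at 9.43, 9.61, 9.55 and 9.17 in parental and at 8.72, 8.89 and 8.79 in lung arrays and fell by 0.64 (SE 0.10, adjusted p = 0.00136; -0.37 against parental 4, adjusted p = 0.055). MAP3K12 fell by 0.26 (SE 0.06, adjusted p = 0.0092) and held (-0.35, adjusted p = 0.0232). GADD45A, named after its values were seen, was the other member called against parental 4 (0.73; 0.30 against the 4 parental arrays, not called there). The phosphatases DUSP5, DUSP6 and DUSP16, which limit MAP kinase signals, were higher by 0.60, 0.66 and 0.54 (adjusted p = 0.0161, 0.0135 and 0.0121). None of them held (0.26, 0.36 and 0.17 against parental 4), and they were named after their values were seen. Of the other DUSP genes of the list, DUSP12, also named after its values were seen, was called lower and none was called higher.

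Metabolic lists moved in both directions. In glycolysis and hexose transport 5 of 22 were higher and 3 lower (median 0.08). Against parental 4 the counts were 2 and 1 and the median was -0.03. The members called there were PGAM1, HKDC1 and, named after its values were seen, the glucose transporter SLC2A1 (0.55; 0.26 against the 4 parental arrays, not called there). The glycolytic mutase PGAM1 was at 10.41, 10.31, 10.49 and 10.60 in parental and at 11.05, 10.99 and 11.02 in lung arrays, rose by 0.57 (SE 0.07, adjusted p = 0.000432; 4 of 4 rows) and held (0.42, adjusted p = 0.0203). The hexokinase-like HKDC1 was at 8.77, 8.77, 8.66 and 8.39 in parental and at 7.86, 7.91 and 7.70 in lung arrays, fell by 0.82 (SE 0.10, adjusted p = 0.000214; 12 of 20 rows) and held (-0.57, adjusted p = 0.0105). The glucose transporter SLC2A3 rose by 1.05 (SE 0.18, adjusted p = 0.00253), and parental 4 at 9.70 lay nearer the lung arrays (10.03 to 10.52) than the other parental arrays (8.94 to 9.01), so that its 0.50 against parental 4 was not called.

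In the list of glutathione, NRF2 and aldo-keto reductase genes 2 of 26 were higher and 6 lower (median -0.04). Against parental 4 the counts were 1 and 3 and the median was -0.11, from AKR1C3, AKR1C4, ABCC2 and, named after its values were seen, AKR1E2 (0.55; 0.38 against parental 4). The lower count was 3 without lung 1, parental 1 or parental 2, and the higher count 1 without lung 2, lung 3 or parental 1. ABCC2, an exporter of organic anions and glutathione conjugates, was at 8.67, 8.76, 8.59 and 8.80 in parental and at 7.57, 7.55 and 7.98 in lung arrays. It fell by 1.01 (SE 0.10, adjusted p = 9.31e-05; 16 of 32 rows) and held (-1.10, adjusted p = 0.00312). Of 21 cholesterol and fatty acid genes 2 were higher and 3 lower, and 0 held. Without parental 4 there were 5 lower calls, and the higher count was 1 without lung 1, lung 3 or parental 1, 2 or 3. The desaturase FADS2 rose by 0.56 (SE 0.10, adjusted p = 0.00304; 0.51 against parental 4), and the fatty acid importer of mitochondria CPT1A fell by 0.30 (SE 0.06, adjusted p = 0.00672; -0.24 against parental 4). ACACB fell by 0.38 (SE 0.08, adjusted p = 0.00676; -0.21 against parental 4), but its brightest row was 0.78 higher and not called.

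Apoptosis genes and p53 targets were called 5 higher and 5 lower of 30. Against parental 4 there were 2 higher and 2 lower. Of these MDM4 held, and BAD (0.48), CDKN1B (0.45) and SESN3 (-0.48), named after their values were seen, were not called against the 4 parental arrays (-0.08, 0.10 and -0.14). Without lung 1, lung 2 or parental 1, 2 or 3 in turn the higher count was 2 or 3 and the lower count 3. Both p53 antagonists fell. MDM4 was at 9.22, 9.15, 9.12 and 9.27 in parental and at 8.66, 8.74 and 8.66 in lung arrays (-0.50, SE 0.08, adjusted p = 0.00198) and held (-0.58, adjusted p = 0.0211). MDM2 was at 10.02, 10.07, 9.87 and 9.74 in parental and at 9.51, 9.53 and 9.45 in lung arrays (-0.43, SE 0.08, adjusted p = 0.00368) and did not (-0.24, adjusted p = 0.139). The death receptor FAS was higher (0.54, SE 0.09, adjusted p = 0.00269; 0.36 against parental 4, adjusted p = 0.112), but its brightest row alone changed by 0.06. Of 12 ribosomal protein genes 1 was called, RPL27A, as lower (-0.25, SE 0.08, adjusted p = 0.0332), and it was not called without lung 3 or parental 1, 2 or 3. Against parental 4 RPL27A differed by -0.08 (adjusted p = 0.623) and 0 of the 12 were called, while without parental 4 there was 1 higher call.

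Cell cycle and DNA replication genes were lower in lung derivatives: 22 of 39 measured members (56.4%) were called lower and 2 higher, and 36 of 39 changes were below 0, with a median of -0.25. The kinesin KIF20B was at 10.35, 10.14, 9.96 and 9.71 in parental and at 9.28, 9.36 and 9.50 in lung arrays (-0.66, SE 0.13, adjusted p = 0.0056). The centromere protein CENPF (-0.57, SE 0.09, adjusted p = 0.002), the spindle protein ASPM (-0.47, SE 0.08, adjusted p = 0.00177) and the replication licensing regulator DTL (-0.31, SE 0.06, adjusted p = 0.00513) also fell. The proliferation antigen MKI67, named like KIF20B after its values were seen, was at 11.72, 11.71, 11.73 and 11.62 in parental and at 11.44, 11.31 and 11.33 in lung arrays (-0.33, SE 0.07, adjusted p = 0.00672). The replication factor MCM10 (0.20) and the transcription factor E2F8 (0.26) were the 2 higher members, both named after their values were seen. The higher count was 1 without lung 1, lung 2 or parental 2.

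None of these cell cycle calls held. Against parental 4, 0 of 39 members were called and 35 of 39 changes were below 0, with a median of -0.14 against -0.0017 for all genes. Without parental 4 the counts were 25 lower and 2 higher. Leaving out lung 1, lung 3, parental 1 or parental 2 reduced the 22 lower calls to 12, 13, 10 and 10. The lower calls were 13 after quantile normalization, 15 after median centring and 10 after cyclic loess, and the median stayed below 0 in each (-0.19, -0.20 and -0.18). These genes are bright (median level 10.47), and with all genes split into 5 equal groups by level the 2 brightest groups had 31.1% and 25.8% called lower, so level moved with this result and its part in it was not tested beyond these values.

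**Figure D4:**
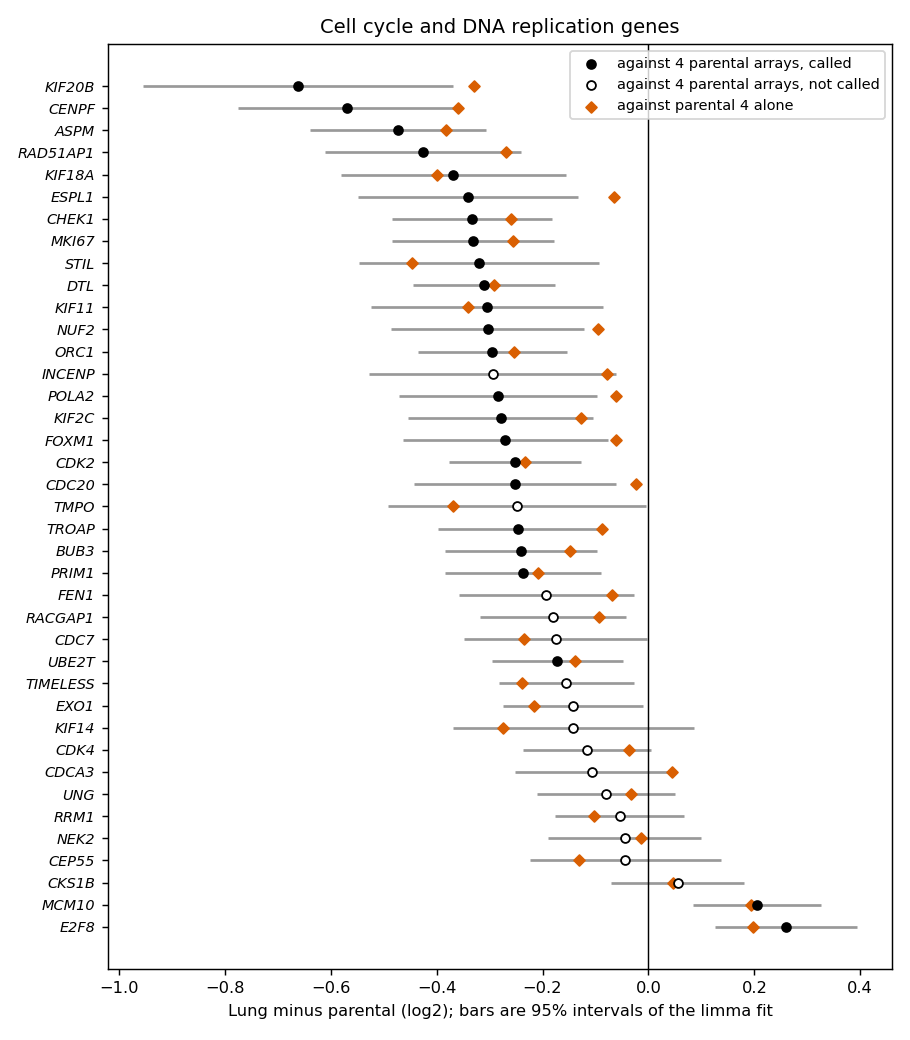
Difference of lung minus parental (log2, x axis) for the 39 cell cycle and DNA replication genes: circles are against the 4 parental arrays (filled where called, with the 95% interval of the limma fit) and orange diamonds are against parental 4 alone. Of the circles 36 lie below 0, from -0.66 in KIF20B, whose diamond lies at -0.33.

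The change depended on how bright a gene was. With genes in 5 equal groups by their mean level over all 10 arrays, the median change from the dimmest to the brightest group was 0.19, 0.08, -0.02, -0.12 and -0.11, and against parental 4 it was 0.12, 0.06, -0.01, -0.10 and -0.06. Higher calls fell from 240 of 943 genes in the dimmest group (25.5%) to 41 of 943 in the brightest (4.35%), while lower calls ran from 24 (2.55%) to 243 (25.8%). The 228 olfactory receptor genes, which are off in most tissues outside the nose, had a median level of 6.18. Of these genes 70 were called higher (30.7%) and 0 lower, with a median change of 0.27, and against parental 4 the counts were 4 and 1 and the median 0.16. Leaving out lung 2 raised the 70 to 110, and leaving out lung 1, lung 3, parental 1 or parental 2 lowered it to 32, 43, 36 and 40. After cyclic loess 46 were called higher and the medians of the 5 groups were 0.11, 0.06, 0.01, -0.05 and -0.04. The part of level in the other rises was not tested.

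**Figure D5:**
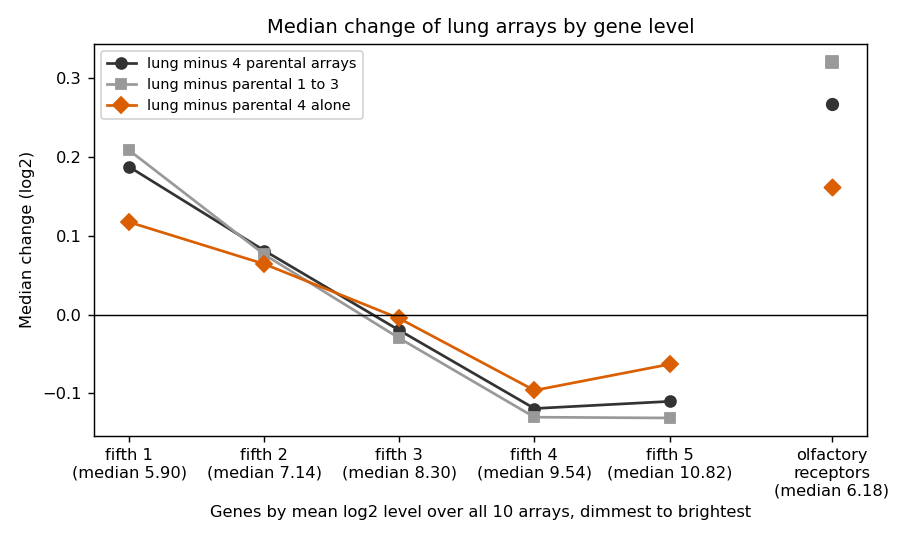
Median change of lung minus parental (log2, y axis) for 5 equal groups of all genes from dim to bright and, on the right, for the 228 olfactory receptor genes: black circles are against the 4 parental arrays, grey squares against parental 1 to 3 and orange diamonds against parental 4 alone. All 3 series fall from the dimmest group (0.12 to 0.21) to values below 0 in the 2 brightest groups.

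Some markers of cell types other than colon carcinoma were called. Leukocyte markers were 9 higher and 1 lower of 22 (40.9% higher; median 0.21; 0.16 against parental 4), and 5 held: CD5, LYZ, CD4 (0.71; 0.77 against parental 4), CD6 (0.51; 0.49) and CD3D (0.45; 0.60). By the brightest row alone CD4 changed by 0.09 and CD6 by 0.11, and neither was called. CD4 was at 7.29, 7.24, 7.15 and 7.14 in parental and at 7.88, 7.84 and 8.03 in lung arrays, and CD6 ran from 7.64 to 7.68 and from 8.11 to 8.20. The T cell receptor chains CD3E (0.10) and CD3G (0.10) and the myeloid S100A8 (0.12) were not called, and the pan-leukocyte PTPRC, at 5.21 to 5.26 in lung against 4.96 to 5.11 in parental arrays, differed by 0.19 (adjusted p = 0.0395). CD6, CD3D and PTPRC were named after their values were seen. Without lung 1 the count of lower leukocyte markers was 0 in place of 1. The mean level of the list was 6.39 to 6.49 in parental, 6.59 to 6.64 in liver and 6.73 to 6.81 in lung arrays. The levels of single members of the list ran from 5.1 to 8.24, with a median of 6.6. Of the groups by level described above, the dimmest ended at 6.58 (median change 0.187) and the middle group began at 7.71 (median change -0.02). The list thus reached from the dimmest group into the middle group. The part of other cells or of level in the rise of the leukocyte markers was not tested.

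Of 7 lung epithelial markers 3 were higher and 1 lower: PDPN (0.35, SE 0.07, adjusted p = 0.00536), the surfactant proteins SFTPA2 (0.45, SE 0.12, adjusted p = 0.0188) and SFTPA1 (0.39, named after its values were seen), which share sequence, and RTKN2 (-0.30). The club cell protein SCGB1A1 was at 7.38 to 7.51 in parental and 7.33 to 7.49 in lung arrays, SFTPD changed by -0.05, and none of the 7 held against parental 4. The higher count was 1 without lung 1 or parental 1, and the lower count 0 without lung 2, lung 3 or parental 1. SFTPA2 was not called without lung 1, lung 3 or parental 1. The mean level of the list was 7.65 to 7.80 in parental arrays, with parental 4 highest, and 7.81 to 7.93 in lung arrays. Stromal markers were 3 higher and 3 lower of 10, endothelial markers 1 higher of 8 (SELE, 0.29) and hepatocyte markers 1 lower of 12 (CYP2E1, -0.25). The stromal higher count was 1, 0, 1 and 0 without lung 1, lung 3, parental 1 and parental 2, and the lower count 1 without lung 1, parental 1 or parental 2. The endothelial count was 0 without lung 3, parental 1 or parental 2. Hepatocyte markers called higher were 2 without lung 2 and 3 without parental 4, and the lower count was 0 without lung 1, lung 3, parental 1 or parental 2. Against parental 4 alone LUM was called lower among the 10 stromal markers, and 0 of the endothelial and 0 of the hepatocyte markers were called. C1R (0.28; 0.38 against parental 4, not called) and MFAP5 (0.30; 0.11, not called) were the stromal rises with the smallest adjusted p (0.0216 in both). OLFML3 (-0.39; -0.31 against parental 4, not called) fell by the mean of its rows while its brightest row differed by 0.39. SELE differed by 0.25 and CYP2E1 by -0.25 against parental 4. The calls of C1R, MFAP5, SELE and CYP2E1 were each lost without lung 3 and without parental 2. The part of mouse or human cells other than SW620 in any result was not tested.

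Lung and liver derivatives were compared to show which of these changes differ between the organs. In lung minus liver 937 genes were called (19.9%), 378 higher (8.02%) and 559 lower (11.9%), but with a term shared by parental 4 and the lung arrays 4 were called (0.0849%), 3 higher (0.0637%) and 1 lower (0.0212%), against 454 at an unadjusted p under 0.05. Those 4 were RAB25, CNTN1, NCAM1 and CAMK2N1, of which NCAM1 and CAMK2N1 were not called without the term (-0.18 and 0.29; 0.82 and 1.04 with it). The term is the difference of parental 4 from parental 1 to 3, and the contrast subtracts it, so values with the term rest on 1 array. In NCAM1 parental 4 was at 7.65 against 8.61 to 8.72 in parental 1 to 3, and in CAMK2N1 at 8.86 against 9.58 to 9.63. The values of these genes with the term are therefore not read as organ differences. Without the term the 937 calls fell to 188, 602, 364, 31 and 174 without lung 1, lung 3 or liver 1, 2 or 3 and rose to 1523 without parental 4. RAB25 was at 9.22, 9.22 and 9.09 in liver arrays and 0.99 higher in lung arrays (SE 0.08, adjusted p = 0.000175; 1.05 with the term, adjusted p = 0.0209).

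CNTN1, a neural cell adhesion molecule, was at 5.42, 5.38, 5.52 and 5.37 in parental, at 7.11, 7.01 and 7.12 in liver and at 5.82, 5.76 and 5.82 in lung arrays. It rose in lung derivatives by 0.38 (SE 0.06, adjusted p = 0.00198) and held (0.43), but it was 1.28 lower there than in liver derivatives (a lung minus liver difference of -1.28, SE 0.07, adjusted p = 3.17e-06; -1.21 with the term). Other rises larger in lung than in liver arrays were PLA2G12B (0.77), LYZ (0.67) and ADAMTS4 (0.63), and the ETS factor FLI1 (-0.77) and CCND2 (-0.90) rose in lung derivatives but stood lower than in liver derivatives. WT1 was 0.96 below its liver level (-0.96, SE 0.16, adjusted p = 0.0103). None of these 6 was called in lung minus liver with the term. MUCL1, ADGRL2 and KRT5 were not called between lung and liver (-0.69, 0.25 and 0.02, SE 0.24, 0.11 and 0.16, adjusted p = 0.0618, 0.124 and 0.954).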

How the data were processed

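Per the labels' protocols, cultured cells gave RNA by RNeasy mini kit, which was biotin-labelled for Affymetrix HG1.0ST chips. The deposited table holds 65535 rows of log2 values on 10 arrays, which the authors made, per the submitters' processing notes, by RMA with oligo, a package of R. RMA puts all arrays on a common distribution. The log2 base was taken from the range of the values, and the level at which probes were summarised, the annotation and the genome build are not given in the sources used here. The 54806 rows with 1 gene symbol were used, a median of 10 a gene, while 2143 rows with several symbols and 8586 without a listed gene were left out. Of 4727 symbols 601 were updated and 24 kept as listed, which gave 4713 genes. Array signal over background was not used, and the number of arrays limits the precision.

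Gene means were fitted with limma 3.58.1 in R 4.3.3 over all 10 arrays with 1 term per group. The contrast with parental 4 alone and the lung minus liver contrast with an array term used a term shared by parental 4 and the lung arrays, and the contrast with parental 1 to 3 left parental 4 out. Adjusted p-values are Benjamini-Hochberg over 4713 genes, and a gene was called under 0.05. The fit was tested on simulated independent values, which held no shift of parental 4 and no change with gene level. That test therefore cannot show how the fit behaves where these are present. Alternatives were another summary of rows, further scaling, filters, moderation settings, a replicate block, the 7 arrays alone and leaving out each array. Cyclic loess was added after the data were seen.

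Genes were named by rule: the 12 largest rises and 12 largest falls with at least 2 rows whose groups did not overlap and that held against parental 4, the 5 largest each way that did not hold, up to 3 called members of each list with the smallest adjusted p, and the 4 largest differences each way from liver derivatives among genes that met the first rule. A member of a list that was not called could also be named as an example, and KRT8 and KRT18 were named to check the line. Other genes whose own values are given are marked as named after their values were seen. The genes, lists and tests were chosen with earlier results of these data known.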

Additional observations from a re-analysis of the deposited data

Results flagged for a closer look

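Among 101 named genes, the 4 parental arrays held 1 array far from the other 3 in 8 genes, judged by the gap to the nearest array as a share of the whole range (Dixon's 95% critical value 0.83). The critical value is passed by chance in about 1 in 20 groups that were not chosen by their values. The genes were named by rules that use these parental arrays, so that rate is no reference for the 8 genes. In 6 of the 8 genes that array was parental 4. NCAM1 (gap 0.89 of the range) was at 7.65 there against 8.61 to 8.72, and CAMK2N1 (0.928) at 8.86 against 9.58 to 9.63. FAM171A1 (0.851) was at 8.07 against 8.20 to 8.22, and MKI67 (0.845) at 11.62 against 11.71 to 11.73. SLC2A3 (0.906) was the highest at 9.70 against 8.94 to 9.01, and so was TGFB2 (0.898) at 7.91 against 7.19 to 7.26. In FADS2 (0.883) parental 3 was the lowest at 8.93 against 9.17 to 9.20, and in PDPN (0.927) parental 2 at 6.86 against 7.05 to 7.07.

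The lung and liver derivatives differed in limma's test of lung minus liver in 46 of the named genes, given here as log2 differences. Genes higher in lung derivatives than in parental arrays that stood above the liver derivatives were MMP7 (1.39), ZNF487 (1.37), RAB25 (0.99), ACSL5 (0.9), PLA2G12B (0.77), OAS1 (0.7), EGR2 (0.67), LYZ (0.67), TGFB2 (0.67), ADAMTS4 (0.63), IGF2 (0.61), PGAM1 (0.53), TNFSF4 (0.5), KRT86 (0.48), FAS (0.41), IFI44L (0.38) and PDPN (0.34). Genes higher than in parental arrays that stood below the liver derivatives were CNTN1 (-1.28), CCND2 (-0.9), FLI1 (-0.77) and CD4 (-0.28). Genes lower than in parental arrays and also below the liver derivatives were ANKRD36BP1 (-1.11), WT1 (-0.96), ITPR2 (-0.73), CENPF (-0.7), TMEM183A (-0.61), HBE1 (-0.6), OLFML3 (-0.6), ASPM (-0.53), CD44 (-0.5), LGR5 (-0.46), HKDC1 (-0.44), KRT80 (-0.43), ROR1 (-0.42), RAB11FIP2 (-0.4), MDM2 (-0.38), MDM4 (-0.36), RPL27A (-0.34), MKI67 (-0.31), DTL (-0.29), CPT1A (-0.23) and MAP3K12 (-0.2). Genes lower than in parental arrays that stood above the liver derivatives were LUM (1.35), AKR1C3 (0.6), ABCC2 (0.46) and TGFBR3 (0.31). With a term shared by parental 4 and the lung arrays 4 genes of the whole table were called between the organs, RAB25 and CNTN1 among these 46.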

How the results depend on the processing

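Of 101 named genes, 93 kept direction and call in a fit of the 7 lung and parental arrays, 83 with the median of the rows, 59 with the brightest row, 97 after quantile normalization, 96 after median centring, 96 after cyclic loess, 100 with a trend and robust moderation, and 49 against parental 4 alone. The count of 1420 called genes was 937 in the 7 arrays, 271 against parental 4 alone, 877 with the median of the rows and 7191 of 54806 single rows, and it ran from 832 to 1950 with 1 array left out. The 271 calls against parental 4 became 123 with the median of the rows, 129 with the brightest row and 412 with a trend and robust moderation, and ran from 195 to 353 with 1 array left out. The count against parental 1 to 3 ran from 1422 to 1964 and the 937 calls of lung minus liver from 31 to 1523 with 1 array left out, and the latter was 4 with the term shared by parental 4 and the lung arrays. The cause of these shifts was not tested. Some genes were named because they were, or were not, called against parental 4, so the 49 was partly fixed in advance.

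The sign changed in these values. KRT18 was 0.10 against parental 4, 0.16 with the median of the rows, 0.0135 after quantile normalization, 0.0397 after median centring, 0.016 after cyclic loess, and from -0.0852 to 0.0448 with 1 array left out. PTHLH was -0.41 against parental 4, and SELE -0.0564 with the median of the rows. With the brightest row A1CF was 0.0015, ACACB 0.78, HTRA1 1.20, KRT8 -0.22, KRT86 -0.10, NRP1 0.13, OLFML3 0.39, RAB3IL1 0.19, ROR1 1.26, RTKN2 0.0473, TMPRSS4 -0.21 and TNFRSF9 -0.0701.

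Other named genes kept their sign and lost the call. With the brightest row these were ADAMTS4 (0.23), ADM (0.36), ASPM (-0.02), C10orf67 (-0.07), CCND2 (0.08), CD4 (0.09), CD6 (0.11), CNTN1 (0.21), CPT1A (-0.19), CYP2E1 (-0.09), DTL (-0.16), FAS (0.06), FLI1 (0.43), HBE1 (-0.64), IFI44L (0.36), IGF2 (0.16), LAMB3 (-0.20), MAP3K12 (-0.26), MKI67 (-0.21), MMP7 (0.69), NID1 (-0.63), PKP1 (0.49), PLA2G12B (0.17), PLXNA2 (-0.03), RAB11FIP2 (-0.43), RPL27A (-0.08), SELE (0.51), TNFSF4 (0.40), ZEB1 (-0.33) and ZNF487 (0.45). With the median of the rows they were CNTN1 (0.48), CPT1A (-0.18), CYP2E1 (-0.17), IFI44L (0.29), IL10 (0.44), LGR6 (-0.28), MAP3K12 (-0.24), MDM2 (-0.16), MFAP5 (0.18), OAS1 (0.42), OLFML3 (-0.33), PKP1 (0.25), RAB3IL1 (-0.53), RPL27A (-0.08), RTKN2 (-0.30) and TNFSF4 (0.70).

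Deviations of lung and parental arrays of the same number correlated at -0.154, -0.012 and -0.067, and those of different numbers at -0.116 to 0.205. With 3 arrays a group these values cannot show whether the replicate numbers pair the samples. Parental 4 has no partner of its number, so the replicate block leaves it out. With the block 1788 genes were called, which compares with the 1950 called without parental 4 and no block, and 1738 were shared. In lung minus liver the block gave 1290 calls, which compares with the 1523 called without parental 4 and no block.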

Other observations

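Rows of 1 gene did not always move together. In 52 genes at least 2 rows were called higher and at least 2 lower, among them the dynein heavy chain DNAH10 with 7 higher and 4 lower of 68 rows and the ryanodine receptor RYR2 with 10 higher and 3 lower of 104. Of 1215 called genes with at least 4 rows, 145 had at least 50% of their rows called in the direction of the gene mean. The chromatin regulator KMT2A had 16 of 46 rows called lower and 3 higher (-0.26, limma adjusted p = 0.0118; -0.25 against parental 4, not called), and the DNA damage kinase ATM had 8 of 43 lower and 2 higher (-0.36, limma adjusted p = 0.0204; -0.41 against parental 4, not called). These genes were named after their values were seen.

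Among 25 neighbouring genes at a time, with olfactory receptors left out, the window with the highest median change lay on chromosome 12 from KLRF1 to TAS2R9 (0.30; 0.20 against parental 4), a stretch that holds natural killer receptor genes. On chromosome 11 the highest window ran from TCN1 to CD6 (0.24; 0.22 against parental 4) and on chromosome 1 from ZZZ3 to MCOLN2 (0.25; 0.07 against parental 4). The lowest window lay on chromosome 1 from PLD5 to ZNF496 (-0.23; -0.09 against parental 4). Median changes of whole chromosomes ran from -0.022 to 0.029. The windows were picked by their values and were not tested.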
